A study of Saccharomyces cerevisiae with 9 samples.

Results

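The strains described here are haploid Saccharomyces cerevisiae gene deletion strains whose standing in a mixed pool differed between 400 and 800 µM sodium arsenite. All strains with a value on both arrays were taken, which gave 3905 strains of the 5101 measured on any of the 9 arrays of the study. Each strain carries short DNA tags that identify it, up to 2 in most cases. Of the 3905 strains, 2197 had at least 2 tags read on both arrays, 1704 had 1 such tag and 4 had none in common.

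Pools of deletion strains were grown with and without arsenite and their tags were compared on 2-colour arrays, 6 of them for the haploid pool (0, 100, 200, 400, 800 and 1600 µM). The haploid pool came from heterozygous diploid knockout strains of the BY4743 (S288C) background that were sporulated and selected for MATa progeny. The diploid parents were homozygous for ura3delta0, leu2delta and his3delta1 and heterozygous for lys2delta0 (over LYS2) and for met15delta0 (over MET15). They also carried 1 copy of the haploid selection cassette can1delta::LEU2-MFA1pr-HIS3 over CAN1 and xxx::kanMX over XXX, where xxx is the gene deleted in the strain. At each dose a culture with arsenite (Cy3) and one without it (Cy5), started together from the same cells, were grown at 30 °C to confluence on "Magic Marker" plates, which select for haploid cells. The control condition and the deletion markers are common to all doses, so by their labels the haploid arrays differ only in the arsenite concentration. By that description each dose had its own control culture, so a difference between doses also carries any difference between their controls.

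Arsenite is a trivalent arsenic compound that enters yeast largely through the aquaglyceroporin Fps1 and binds cysteine thiols of proteins. Cells pump it out through the plasma membrane exporter Arr3 and carry its glutathione conjugate into the vacuole through Ycf1, while the osmotic stress kinase Hog1 closes Fps1. In a pooled culture each strain competes with all others, so a strain that grows less well than the rest is depleted even if it still divides, and a strain that copes better gains share.

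The strain value is the mean of its tags' log ratios, turned so that a negative value means fewer cells with arsenite than without, and centred on the array's median strain. Values are read as log2, on which 1 is a factor of 2. There was 1 array per dose and no dye swap, so no difference between doses has a replicate or a test, and the direction is likely rather than settled: with the sign turned, each loss below would read as a gain. The 2 tags of a strain served as the measure of error. They sample the same DNA, so they cover tag amplification and hybridisation and not the spread between cultures.

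Over the 2190 strains with a tag in each of the 2 tag sets, the 800 minus 400 µM difference of a single tag had an SD of 0.29, and the mean of 2 tags an SD of 0.21. The differences of the 2 tag sets correlated across strains with r = 0.83 (2190 strains of 1 pool, which are not independent replicates). Of the 287 such strains whose mean difference reached 1 in size, 286 had both tags on the same side of 0 and 214 had both past 1. A strain was called lower or higher at 800 µM where each of at least 2 tags differed by 1 or more in that direction.

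**Figure D1:**
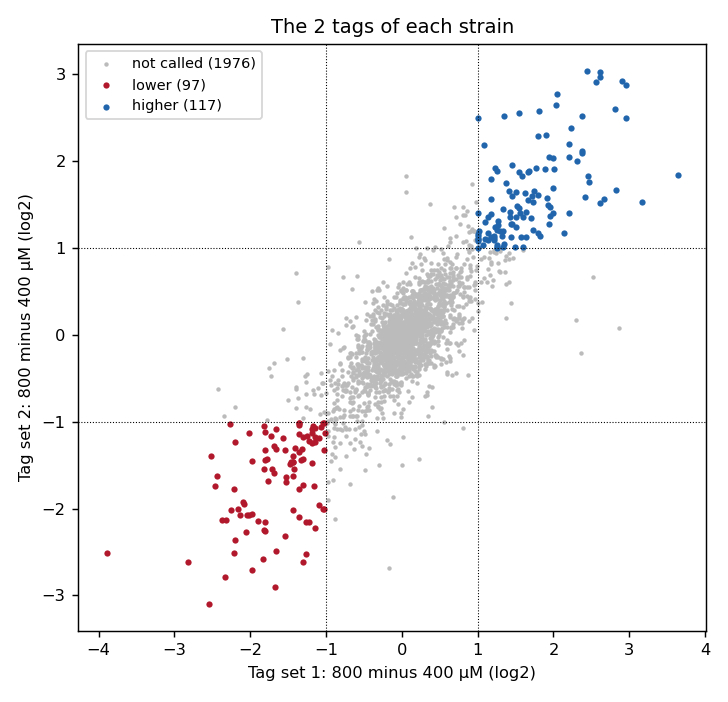
Difference between 800 and 400 µM (log2) of each strain's tag in tag set 1 (horizontal) and tag set 2 (vertical); dotted lines mark −1 and 1. Called strains fill the lower left and upper right corners, and across the 2190 strains the 2 sets correlate with r = 0.83.

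By that rule 97 strains (4.42% of 2197) were lower at 800 µM and 118 (5.37%) were higher. These 2 shares are the background for the counts of called strains in each gene list below. Without centring, as the values were deposited, the split was 139 lower and 79 higher, since the median strain itself moved by −0.20 between these arrays. Values were also more widely spread at 800 µM, with an interquartile range of 0.97 against 0.60 at 400 µM. With both arrays scaled to the same median absolute deviation the calls were 21 lower and 60 higher, and after quantile normalization 23 and 37. Under these 2 scalings 18 of the 97 lower and 28 of the 118 higher strains kept their call in both. The direction was kept by 95 and 96 of the 97 (not by ARP1, nor with equal deviations by KAP123) and by 118 and 117 of the 118 (not by SKG3 after quantile normalization). All changes below are relative to the median strain and, unless a scaling is named, without scaling. The steps before held far fewer strains: 100 minus 0 µM had 8 lower (0.401%) and 1 higher (0.0502%) of 1994, 200 minus 100 µM had 15 (0.658%) and 0 of 2280, and 400 minus 200 µM had 42 (1.82%) and 1 (0.0433%) of 2309. The SD of the differences over all strains was 0.38, 0.37 and 0.52 in those steps and 0.77 here. Strains with only 1 tag on both arrays cannot meet the rule, and among these 1704 the single value was lower by 1 or more in 173 (10.2%) and higher in 156 (9.15%). Over all 3905 strains the strain value was lower by that much in 7.86% and higher in 7.99%.

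**Figure D2:**
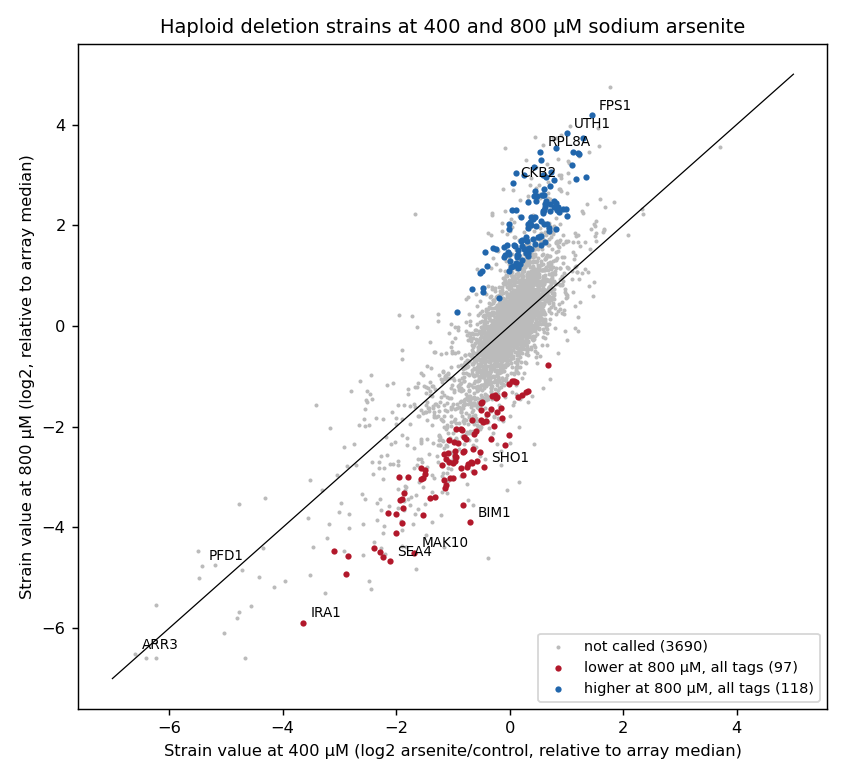
Strain values at 400 µM (horizontal) and 800 µM (vertical), both log2 relative to the array's median strain; the line marks equal values. Red points are the 97 strains called lower and blue points the 118 called higher, and no called strain moves from −1 or less to 1 or more, or the reverse.

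Up to 200 µM both groups had medians within 0.22 of the median strain. With dose, those of the lower strains fell slightly and those of the higher strains rose slightly. The 97 lower strains had medians of 0.01, −0.11, −0.22, −0.84 and −2.60 at 0, 100, 200, 400 and 800 µM. At 400 µM 38 of them were already at −1 or less and 59 lay within 1 of the median strain. The 118 higher strains had medians of 0.09, 0.14, 0.18, 0.40 and 2.01 over the same doses, and 108 of them lay within 1 of the median strain at 400 µM. The other 10 were already at 1 or more there. At 200 µM 64 of the 97 lower strains lay below the median strain, and 85 of the 118 higher strains lay above it. Because the rule selected on the 400 and 800 µM values, these 2 medians are a description of what was selected, whereas the values at 0 to 200 µM were not used by it.

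**Figure D3:**
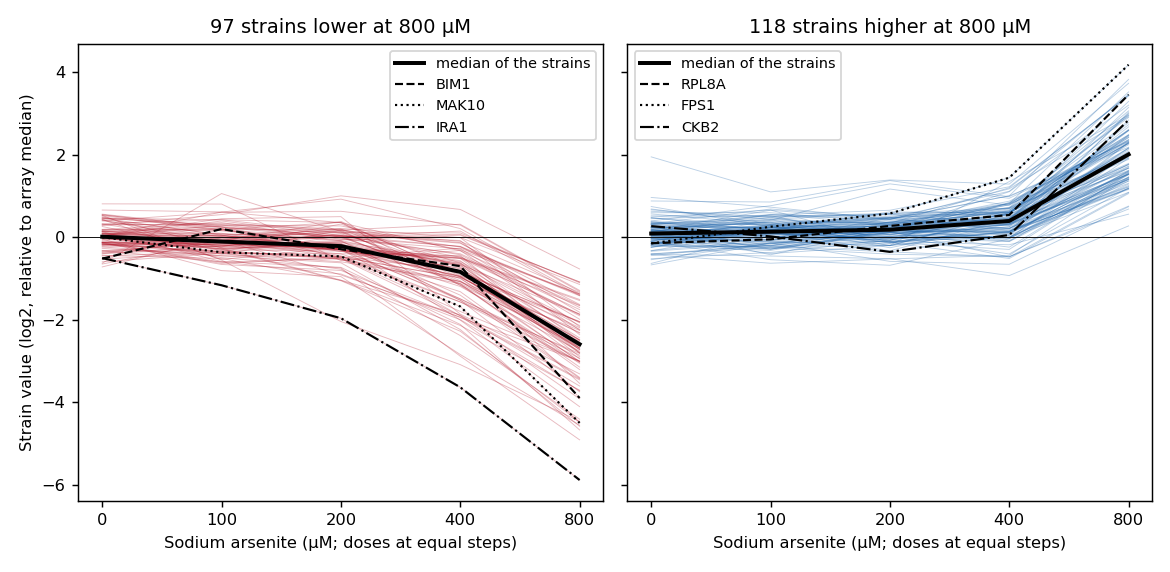
Values (log2, relative to the array's median strain) of each called strain from 0 to 800 µM, drawn at equal steps; the thick line is the median strain of the group. The lower strains (left, 97) have medians of −0.22, −0.84 and −2.60 at 200, 400 and 800 µM. The higher strains (right, 118) have 0.18, 0.40 and 2.01. The calling rule used the 400 and 800 µM values.

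Strains of the cytosolic ribosome gave the broadest gain. Of 67 measured ribosomal protein strains, 62 had a difference above 0, and the median was 1.75 against 0.00 over all 3905 strains. Among the 34 with 2 tags, 20 were called higher (58.8%) and 0 lower, and another 29 with fewer tags reached 1 or more. The calls were 13 with equal deviations and 7 after quantile normalization, with 0 lower in each. Their median value went from 0.45 at 400 µM to 2.28 at 800 µM. Most such genes exist as 2 near-identical copies, so a strain that lacks 1 copy is viable.

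RPL8A, which encodes a protein of the large subunit, had the strain with the highest difference of all that were called. Its values were −0.14, −0.05, 0.28, 0.54 and 3.46 at 0, 100, 200, 400 and 800 µM, and its 2 tags gave 2.88 and 2.96. The strain was thus close to the median until 400 µM and then 7.57 times more abundant at 800 µM than at 400 µM relative to it. RPL34A followed the same course with −0.44, −0.16, 0.18, 0.12 and 3.04, as did RPL37B with 0.22, 0.36, −0.20, 0.56 and 3.30. RPL29 had 0.08, 0.42, −0.10, 0.04 and 2.30. In the small subunit the leading strains among those called were RPS22A (a difference of 2.19) and RPS0A (2.15), while RPS29B had 3.00 and RPS6A 2.51 from 1 tag each.

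The members that did not gain were few. The viability given by another copy does not apply to RPL32, a single-copy gene, whose strain had a difference of −1.35 from 1 tag. RPS9A had −0.40 from 1 tag. Of 14 paralogue pairs measured on both sides, 10 had both strains at 1 or more, 3 had 1 of them and 1 had neither. RPS4A and RPS4B, whose genes encode the same protein, differed by 2.01 and 2.12. RPL34A and RPL34B, by contrast, had 2.92 and 0.42, each with 2 tags. RPL22A had 3.88 from 1 tag and RPL22B −0.02 from 3.

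Strains lacking factors that build or export the ribosome shared the direction. Of 29 measured, 27 had a difference above 0, with a median of 1.16, and 6 of the 13 with 2 tags were called higher. With equal deviations 2 were called, RRP8 and LSM6, and after quantile normalization 1, LSM6. LSM6 is also on the list of messenger RNA decay below. The 6 were TMA23 (2.35), RRP8 (2.34), JJJ1 (2.10), LSM6 (1.96), RSA1 (1.94) and TSR3 (1.70). RRP8 methylates an adenine of the large ribosomal RNA, and its strain had 0.20, −0.42, 0.20, 0.72 and 3.06 from 0 to 800 µM. TMA23, a nucleolar protein, had 0.19, −0.08, 0.47, 1.12 and 3.46. BUD21, a component of the small subunit processome, lay farthest the other way with −0.88 from 1 tag.

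Of the 2 lists of messenger RNA decay, 1 stood higher. The list of nonsense-mediated decay, SKI and decapping genes had a median difference of 1.11 over 19 strains, and 4 of 10 with 2 tags were called higher with 0 lower (2 and 1 with equal deviations and after quantile normalization). The call left after quantile normalization was LSM6, already counted with ribosome assembly. LSM6 (1.96) and LSM1 (1.48) encode subunits of the Lsm1-7 ring, which binds messages before decapping, and PAT1, its partner, had 2.56 from 1 tag. SKI3 (1.48) and SKI7 (1.30) act with the exosome in 3′ decay. The 3 Upf factors of nonsense-mediated decay were read with 1 tag each and had 2.97 (NAM7), 2.92 (UPF3) and 1.09 (NMD2). Of the 19 strains in this list, 14 had a difference above 0 and 5 below it. The latter were STM1, a ribosome-bound protein (−0.95), the decapping factors EDC1 (−0.13), EDC2 (−0.22) and EDC3 (−0.24), and the exonuclease XRN1 (−0.24 from 1 tag). The list of deadenylation genes, which act earlier in decay, had a median of 0.18 over 8 strains. Only 2 of them had 2 tags, so the absence of calls there says little. Differences were below 0 in 4 strains and above 0 in 4. CCR4 had 1.98 from 1 tag, and NOT3 had 2.28, with 2.54 from its tag on both arrays. PAN2 and PAN3, which form a deadenylase, had −2.39 and −1.82 there, and PAN3 −1.77 from its tag on both arrays.

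Mitochondrial translation went the other way. Of 50 mitochondrial ribosomal protein strains, 44 had a difference below 0, and the median was −0.64. The calls were 4 lower and 0 higher of 23 with 2 tags, of which 1 was lower with equal deviations and none after quantile normalization. MRP20, a large subunit protein, had 0.81, 0.80, −0.56, −0.32 and −2.25 from 0 to 800 µM, and MRPL11 had −0.08, 0.38, −0.94 and −2.60 from 100 to 800 µM. MRPL19 (−1.36) and RSM22 (−1.11) were the other 2. IMG2 lay opposite, at 1.22 from 1 tag.

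The charging enzymes of mitochondrial tRNA were the called members of the wider list of mitochondrial gene expression (3 lower, 0 higher of 27, median −0.45 over 55). None was called with equal deviations or after quantile normalization. They were MSY1 (−1.69), which charges tyrosine tRNA, ISM1 (−1.46), which charges isoleucine tRNA, and SLM5 (−1.20), which charges asparagine tRNA. In a list of these synthetases written after the values had been seen, the 12 measured strains had a median of −1.32, and 5 more reached −1 or less with 1 tag. DIA4, which charges serine tRNA, had 0.58. Respiratory chain and ATP synthase strains did not share this: 68 strains had a median of −0.05, none of 31 with 2 tags was called, and all lay between −0.90 and 0.85.

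**Figure D4:**
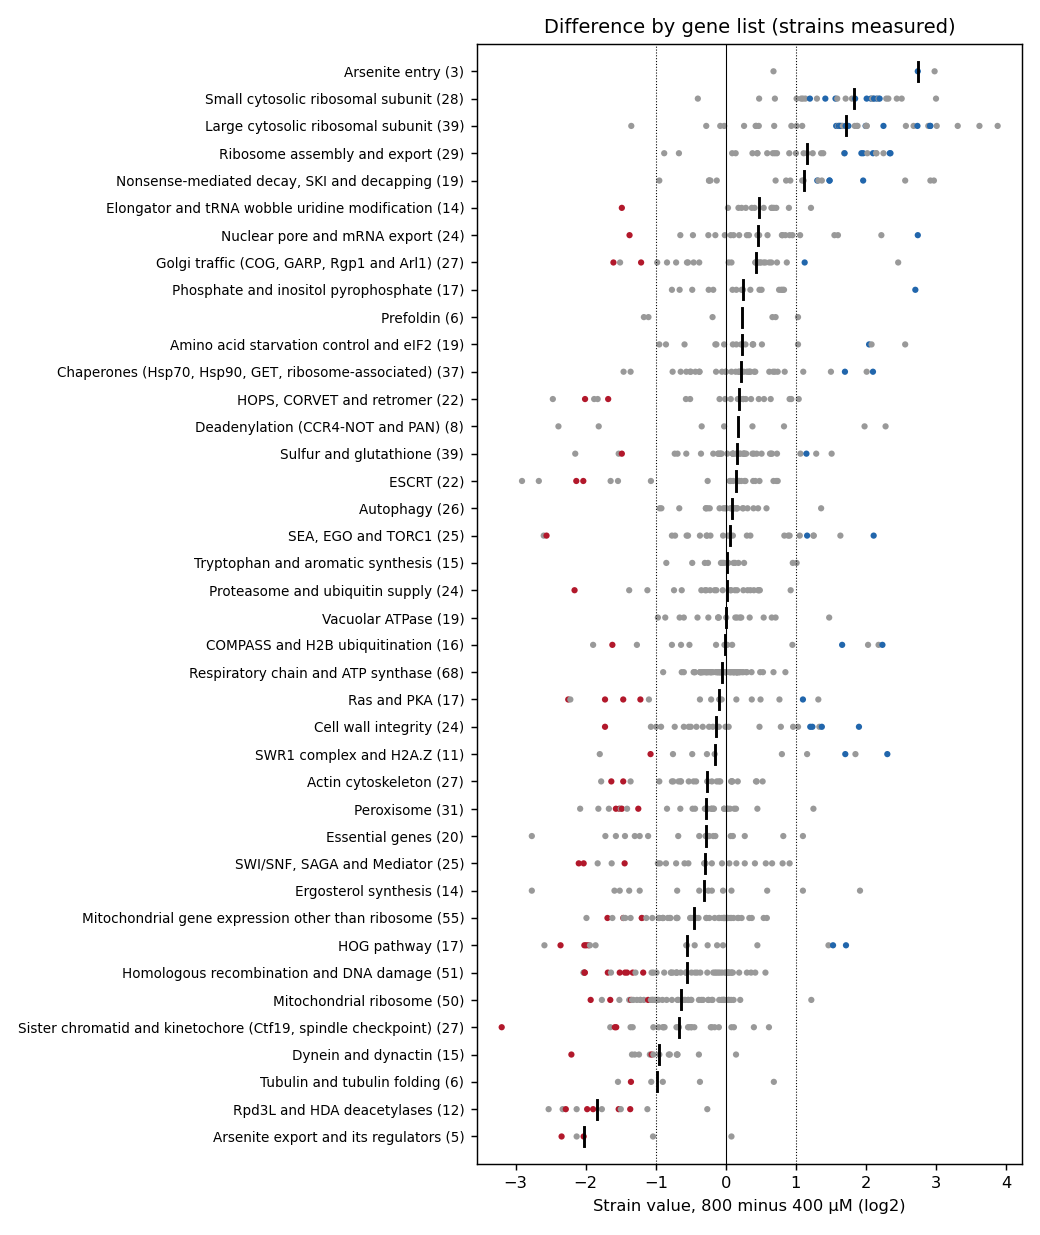
Differences between 800 and 400 µM (log2) of the strains in each gene list, with the number measured in brackets; black bars are list medians, red and blue points are strains called lower and higher, and grey points are not called or have fewer than 2 tags. The ribosomal lists lie highest among the longer lists, with medians of 1.71 and 1.82, and arsenite export and the Rpd3L and HDA deacetylases lie lowest, at −2.03 and −1.83.

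Arsenite transport separated by role. YCF1, the vacuolar transporter of arsenite conjugates, had −0.16, −0.38, −0.78, −2.38 and −4.42 from 0 to 800 µM. ARR2, which is encoded beside the exporter and helps resistance, had −0.24, −0.45, −0.62, −2.24 and −4.58. Both were called lower, although with equal deviations or quantile normalization neither was, and the median of the 5 strains, −2.03, became −0.49 and −0.70. YAP1, the transcription factor of the oxidative stress response, had a difference of −2.13 from 1 tag. The exporter strain ARR3 was already at −5.50 at 100 µM and stayed at −6.60 and −6.52 at 400 and 800 µM, a difference of 0.08. With equal deviations 1 of the 5 export strains was called higher. ARR1, its transcriptional activator, had −4.14 and −5.18, with 1 of its tags short of the threshold.

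Strains lacking entry genes stood at the other end. FPS1, the entry channel, had −0.15, 0.26, 0.57, 1.44 and 4.18 from 0 to 800 µM and a difference of 2.74. Its 2 tags gave 1.84 and 3.64 and so differed in size but not in direction. It was not called with equal deviations or after quantile normalization, where the median of the 3 entry strains was 1.52 and 0.95. ASK10, a regulator that holds Fps1 open, had 0.38, 1.76 and 4.74 at 200, 400 and 800 µM from 1 tag. RGC1, its paralogue, had 0.47, 0.99 and 1.67.

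The high-osmolarity glycerol pathway, whose kinase is Hog1, held called strains of opposite direction among its activators and its inhibitors. In the whole list 4 strains were lower and 2 higher of 10 with 2 tags. With equal deviations 2 were lower and 1 higher, the latter an activation strain, and after quantile normalization 1 was lower and none higher. Neither inhibitor strain called below, PTP2 or NBP2, kept its call under these scalings. SHO1, a membrane sensor, had −0.60, −0.39, −0.40, −0.44 and −2.80 from 0 to 800 µM. STE20, the kinase that acts downstream of it, had −0.20, −0.18, −0.55, −1.13 and −3.15. OPY2, the membrane anchor of the same branch, had a difference of −1.96, and SKO1, a repressor that Hog1 phosphorylates, −2.0. STE50, the adaptor of this branch, was already lower, with −1.11, −2.24 and −4.10 at 200, 400 and 800 µM from 1 tag. SHO1 and OPY2 lay within 1 of the median strain until 400 µM, and STE20 until 200 µM. The other membrane sensors of the branch, MSB2 and HKR1, had differences of −0.13 and −0.45 and were not called.

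In the other branch and the kinases common to both, several strains were low by 400 µM. SSK1 was at −4.66 at 400 µM and −6.60 at 800 µM from 1 tag, SSK2 at −4.42 and −4.97, and PBS2, the kinase kinase common to both branches, at −5.19 and −4.74 from 1 tag. SSK22, the paralogue of SSK2, was not depleted, at 0.48 and 0.22 from 1 tag. HOG1 itself had −1.16, −2.47 and −5.06 at 200, 400 and 800 µM, and its only tag read on both arrays gave −1.55. Against these, the strains lacking proteins that switch Hog1 off were higher. PTP2, the nuclear tyrosine phosphatase, had 0.36, 0.70 and 2.42 at 200, 400 and 800 µM, and NBP2, the adaptor of the phosphatase Ptc1, had 0.55, 0.55 and 2.08. PTC1 had 1.90 at 800 µM against 0.43 at 400 µM. Split by role after the values had been seen, the 11 activation strains had a median difference of −1.86 and the 3 inactivation strains one of 1.53. With equal deviations these were −0.42 and 0.98, and after quantile normalization −0.52 and 0.66.

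The Ras and protein kinase A pathway had 4 strains lower and 1 higher of 13. With equal deviations none was called and after quantile normalization 1 was lower. The median over 17 strains was −0.10, and 0.18 after quantile normalization. IRA1, a GTPase-activating protein that switches Ras off, had −0.50, −1.16, −1.96, −3.64 and −5.89 from 0 to 800 µM. Its paralogue IRA2 had already reached −4.34 at 400 µM and stood at −4.40 at 800 µM from 1 tag. PDE2, the phosphodiesterase that degrades cyclic AMP, had −0.89, −2.0 and −3.72 at 200, 400 and 800 µM. GPB1, another inhibitor of the pathway, had a difference of −1.22, and GPB2, its paralogue, −2.22 from 1 tag. PDE1, the other phosphodiesterase, had 0.20 and 0.12 at 400 and 800 µM. Of the 6 brakes measured, 3 were called lower, IRA1, PDE2 and GPB1. The drivers of the pathway were mixed. GPA2, the G protein that stimulates adenylate cyclase, was called higher at 1.10, and TPK3, a catalytic subunit of the kinase, had 1.32 from 1 tag. SRV2, which binds adenylate cyclase and actin, was called lower at −1.46. RAS2 and RAS1, the GTPases, had 0.77 and 0.50, TPK2, another catalytic subunit, −0.21 from 1 tag, and SDC25, a Ras exchange factor, −0.10.

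Chromatin enzymes held called strains of both directions. Of 12 strains lacking parts of the Rpd3L and HDA histone deacetylases, all had differences below 0, and 5 of 7 with 2 tags were called lower (71.4% against 4.42% over all). With equal deviations and after quantile normalization 2 were called, and the median of −1.83 became −0.77 and −0.72. RXT2, a subunit of Rpd3L, had 0.44, 0.06, 0.05, −0.08 and −2.37 from 0 to 800 µM, and PHO23, its reader of methylated histone H3, had −0.34, −0.52 and −2.5 at 200, 400 and 800 µM. SDS3 (−1.90), SIN3 (−1.53) and HDA3 (−1.36) were the others. RPD3, the catalytic subunit, had −2.21 and −3.98 at 400 and 800 µM from 1 tag. ASH1, a DNA-binding member that acts in daughter cells, had −0.26.

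SET2 and EAF3 lie on the other deacetylase route, in which the small complex Rpd3S binds histones that Set2 has methylated in gene bodies. EAF3 had 0.36, 0.44 and 2.68 at 200, 400 and 800 µM and SET2 had 0.12, −0.10 and 1.56, and both were called higher without scaling, with equal deviations and after quantile normalization. RCO1, the subunit specific to Rpd3S, had 0.95 from 1 tag. Subunits that Rpd3S shares with Rpd3L were counted with Rpd3L above, so the 2 complexes are not cleanly separated here. EAF3 also belongs to the NuA4 acetyltransferase, of which EAF5 (2.31) and EAF1 (1.70) were called higher too. These 3 were all of the NuA4 strains read with 2 tags, and the 6 measured had a median of 1.78 (1.04 with equal deviations, 0.50 after quantile normalization). EAF1 lost its call under both scalings, and YAF9, which NuA4 shares with SWR1, had −0.16 from 1 tag. The NuA4 grouping was made after the values had been seen.

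**Figure D5:**
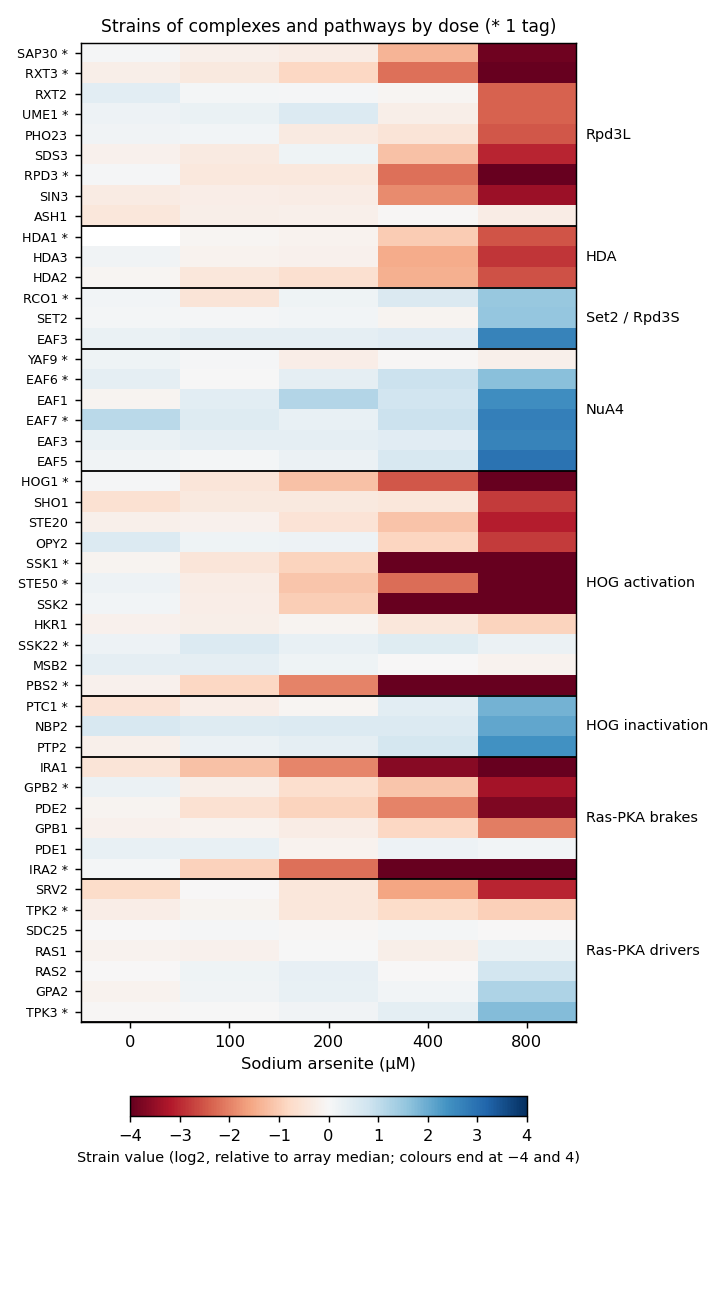
Values of single strains (rows) at 0 to 800 µM (columns) in groups divided by role; red is below and blue above the array's median strain, on a log2 scale cut at −4 and 4, white is not measured, and an asterisk marks strains with 1 tag on the 400 and 800 µM arrays. By 800 µM most strains of Rpd3L, HDA, HOG activation and the brakes on Ras and protein kinase A are red, and most of NuA4, Set2 with Rpd3S and HOG inactivation are blue. SSK22 (0.22) and PDE1 (0.12) in the former and YAF9 (−0.21) in the latter are among the exceptions.

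Other regulators of transcription held a few lower strains. In the list of SWI/SNF, SAGA and Mediator 3 of 9 strains with 2 tags were called lower and 0 higher, with a median of −0.30 over 25. The median was 0.03 with equal deviations and 0.10 after quantile normalization, each with 1 call. GCN5, the acetyltransferase of SAGA, had −0.74, −2.88 and −4.92 at 200, 400 and 800 µM, and SGF29, its reader of methylated histone H3, had −0.16, −2.01 and −4.11. SSN2, of the Mediator kinase module, stood above the median strain at 400 µM (0.68) and below it at 800 µM (−0.77), and its call held under both scalings. SNF2, the remodelling ATPase, had 0.91 from 1 tag. ISW2 and ITC1, the core pair of a nucleosome remodeller, had differences of −2.06 and −1.46. ISW2 kept its call under both scalings and ITC1 under neither. DPB4 and DLS1, other members with 2 tags, had −0.575 and 0.56 and were not called. This group was formed after the values had been seen. The lists of COMPASS with histone H2B ubiquitination, and of SWR1 with H2A.Z, were mixed. BRE2 of COMPASS (−1.62) and ARP6 of SWR1 (−1.08) were lower, whereas the members called higher were SET2, EAF3, EAF5 and EAF1, described above. BRE1, the ligase that ubiquitinates histone H2B, had −1.90, but its only tag read on both arrays gave −1.18. SWR1, the remodelling ATPase, had −1.80 from 1 tag.

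Lists of genes that keep chromosomes intact and move them held lower and no higher calls, although most members were not called. BIM1, a protein that binds microtubule plus ends, had the lowest difference of the called strains. Its values were −0.52, 0.20, −0.29, −0.70 and −3.90 from 0 to 800 µM, and its tags gave −3.89 and −2.51. Relative to the median strain it was 9.19 times less abundant at 800 than at 400 µM. KAR3, a minus-end kinesin, had 0.21 and −1.38 at 400 and 800 µM, and MCM16, of the Ctf19 kinetochore complex, 0.15 and −1.42. The sister chromatid and kinetochore list had a median of −0.67 over 27 strains (3 lower and 0 higher of 16, also 3 under both scalings). The strain value of MAD3, a spindle checkpoint protein, differed by 0.62, but its only tag read on both arrays gave −0.26.

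The dynein motor and its dynactin activator pull the nucleus along microtubules. Of 15 such strains, 14 had differences below 0, with a median of −0.95 and 2 called lower of 10. None was called with equal deviations or after quantile normalization, where the median was −0.38 and −0.26. NIP100 had −1.06, −2.28 and −4.49 at 200, 400 and 800 µM, and ARP1 −0.80, −1.94 and −3.0. Of the tubulin strains, only CIN4, a small GTPase of tubulin folding, was called, with −0.02, −0.40 and −1.76. CIN1, CIN2 and TUB3 had already reached −6.23, −5.04 and −4.78 at 400 µM and differed by −0.37, −1.06 and −0.90 from there, while RBL2, which binds beta-tubulin, had −1.54 from 1 tag and ALF1, a tubulin folding cofactor, 0.68. The median of these 6, −0.98, turned to 0.88 with equal deviations.

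Prefoldin, the chaperone that hands tubulin and actin to the chaperonin, was already depleted at 400 µM. Its 6 strains had a median of −5.46 at 400 µM and −4.92 at 800 µM, a median difference of 0.24 (3.08 with equal deviations), and none was called. With equal deviations and after quantile normalization 1 was called higher. PFD1 had −5.42 and −4.76, GIM5 had −3.96 and −5.07, GIM4 had −6.41 and −6.60, PAC10 had −6.24 and −5.53, GIM3 had −5.49 and −4.46, and YKE2 had −2.34 and −3.51. More widely, the 34 strains at −3 or less at 400 µM had a median difference of −0.31 and ranged from −2.25 to 1.84. Of the 18 among them with 2 tags, 2 were called lower. The lowest strain value was −6.60 on both arrays.

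In the list of recombination and DNA damage genes 8 of 36 strains with 2 tags were called lower and 0 higher, with a median of −0.56 over 51. None was called with equal deviations or after quantile normalization, where the median was −0.26 and −0.24. RAD50 and XRS2 encode parts of the MRX complex that holds broken DNA ends. RAD50 had −0.52, −1.90 and −3.92 at 200, 400 and 800 µM, XRS2 had −0.31, −1.50 and −2.94, and MRE11, the nuclease of the complex, −0.80, −1.61 and −3.64 from 1 tag. All 3 were near the median strain at 0 µM, at −0.32, 0.46 and 0.03. CTF4 (−2.02), which couples helicase and polymerase at the replication fork, and DCC1 (−1.68) and CTF8 (−1.41), of a clamp loader used in cohesion, were lower as well. RAD54, a recombination ATPase (−1.52), MMS1, of a ubiquitin ligase acting at stalled forks (−1.33), and CSM3, a fork protection factor (−1.18), completed the 8. RAD5, a fork remodelling enzyme, had 0.56.

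Membrane traffic lists were divided within themselves. The ESCRT list had a median of 0.14, yet VPS36 and SNF8 of ESCRT-II were lower (−2.13 and −2.04) and VPS25, the remaining subunit, had −1.64 with 1 tag at −0.94. Outside ESCRT-II, VPS20 (−2.91), BRO1 (−2.67) and VPS27 (−1.54) in this list were low as well, from 1 tag each. Of the 22 strains measured, 8 had a difference below 0 and 14 above it. The list of HOPS, CORVET and retromer had a median of 0.18, yet PEP5 (−2.01) and VPS33 (−1.68) of the tethering core common to HOPS and CORVET were lower, while the 4 retromer strains had a median of 0.74. Outside that core, VPS34 had −2.47 from 1 tag, and PEP7 had −1.83, with −1.12 from its tag on both arrays. In this list 9 of 22 strains had a difference below 0 and 13 above it. In the Golgi list, with a median of 0.42, APS3 (−1.60) and APM3 (−1.21) of the AP-3 adaptor, which carries cargo to the vacuole, were lower and GYP1 (1.12), a Rab-inactivating protein, was higher. ERV14, a cargo receptor of vesicles leaving the endoplasmic reticulum, had 2.46 from 1 tag. The list medians changed sign in places, to −0.06 for ESCRT and −0.02 for HOPS, CORVET and retromer as deposited, and to −0.14 for the Golgi list after quantile normalization. The complexes were singled out after the values had been seen.

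Peroxisome strains were divided likewise. Of 18 with 2 tags 4 were lower and 0 higher, and none was called with equal deviations or after quantile normalization. PEX13 and PEX14, the docking proteins for imported enzymes, had −1.57 and −1.52, PEX5, the import receptor, had −1.25, and PEX3, needed to place peroxisomal membrane proteins, had −1.48. Divided after the values had been seen, the 13 strains of import and biogenesis had a median of −1.48 (−0.25 with equal deviations), and the 8 strains that set peroxisome number and size had one of 0.04 (−0.09). PEX32, of the latter, had 1.25 from 1 tag.

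Among cell wall integrity strains 4 of 14 were higher and 1 lower, with a median of −0.14 over 24. The median was 0.62 with equal deviations and 0.54 after quantile normalization, each with 2 higher and none lower. KRE1, a wall glycoprotein of glucan assembly, had −0.44 and 1.46 at 400 and 800 µM, and OST3, of the oligosaccharyltransferase, had 0.14 and 1.52. WSC3 (1.24), a wall sensor, and BCK1 (1.2), a kinase of the pathway, were the others, whereas TUS1, an activator of Rho1, had −1.88 and −3.61. In the list around TORC1, a kinase that couples growth to nutrients, NPR2 (2.11) and GLN3 (1.16) were higher and SEA4 (−2.56) lower. NPR2 inhibits TORC1 and SEA4 belongs to the opposing subcomplex of the same large assembly. MTC5 and RTC1, of the same subcomplex as SEA4, had 0.03 and −0.54, each with 1 tag on both arrays. Of the 2 scalings, NPR2 kept its call only with equal deviations, SEA4 only after quantile normalization and GLN3 in neither. IFH1, an activator of ribosomal protein genes, had −2.60 from 1 tag. The lists of vacuolar ATPase and autophagy held no called member of 11 and 17. Beside the shares of 4.42% lower and 5.37% higher over all, the absence of calls in such short lists says little. With equal deviations and after quantile normalization 1 vacuolar ATPase strain was called higher. ATG41, an autophagy gene not on the list, was called lower (−1.19).

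Further strains were among the largest differences. MAK10, of the NatC enzyme that acetylates protein N termini, had −0.46, −1.68 and −4.50 at 200, 400 and 800 µM. The catalytic subunit MAK3 was also lower (−1.52), and MAK31, the remaining subunit, had −3.20, of which its tag on both arrays gave −2.57. PMP3, a small plasma membrane protein linked to membrane potential, had 0.08, −0.83 and −3.54. UBP2, a deubiquitinase, was at the median at 400 µM (−0.01) and at −2.17 at 800 µM. BUD16, a putative pyridoxal kinase (−2.28), MON2, a scaffold of Golgi and endosome traffic (−2.11), and SDD2 (−2.22) completed the 15 lowest.

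On the other side UTH1, a SUN-family protein linked to mitochondria and the cell wall, had 0.44, 1.00 and 3.83 at 200, 400 and 800 µM. CKB2, a regulatory subunit of casein kinase 2, had −0.36, 0.06 and 2.84, and the catalytic CKA2 was higher as well (1.48). KAP120, a nuclear import receptor, had 0.08, 0.25 and 2.99, PMT1, an O-mannosyltransferase, 0.32, 0.42 and 3.15, and VIP1, an inositol pyrophosphate kinase, 0.20, 0.82 and 3.52. TOP1, topoisomerase I, differed by 2.44 but was already at 1.95 on the array without arsenite. MUB1 (2.40), a partner of the ubiquitin ligase Ubr2, completed the 15 highest. DPH1 (2.13), JJJ3 (1.70) and DPH6 (1.26), of the synthesis of diphthamide on elongation factor 2, were called higher. RRT2, of the same group and with 2 tags, had 0.62 and was not called. The median of the 6 strains measured, 1.35, was 0.90 with equal deviations and 0.63 after quantile normalization. There 1 and 0 were called. The group was formed after the values had been seen.

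At the edge of the rule, the weaker tag of ARD1, STP1 and ARP6 lay between −1.01 and −1.02, and that of LDB18, VHR1 and TMC1 between −0.98 and −0.99. On the high side the weaker tags of DAL81, GYP1 and HRD1 were at 1.00 and those of GSH1, RPS24B and RTG1 at 0.98. SPC98 met the rule with 2 tags at 1.07 and 1.17 although its strain value, which includes a tag read on 1 array only, differed by 0.74. It is an essential gene of the spindle pole body.

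Arrays that the rule did not use were set beside the calls. On the 1600 µM array 68 of the 97 lower strains and 71 of the 118 higher strains were measured (70.1% and 60.2%, against 79.8% of those not called). There 59 of the 68 lower strains lay below the median strain and 32 at −1 or less, against 9.18% of all 2-tag strains measured, and 63 of the 71 higher strains were at 1 or more, against 18.1%. On the array of a pool lacking PFD1 as well, grown with 5 µM arsenite, 31 of the 97 lower strains were at −1 or less (background 5.69%) and 53 of 117 higher strains at 1 or more (background 6.15%). That pool was made by disrupting PFD1 with TEF1pr-URA3 in the same kind of heterozygous strains. Its arsenite medium also lacked uracil while its control medium held it, and the part this played was not tested. In the heterozygous diploid pool the 450 minus 0 µM difference had medians of −0.07 and 0.10 for the 2 groups, with 3 of 96 lower strains at −1 or less against 1.52% of all, and 1 of 118 higher strains at 1 or more against 0.598%.

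Some facts of the arrays bear on these values. The deposited medians were −0.06 at 400 µM and 0.12 at 800 µM, and 2.99 at 1600 µM, where 2508 strains had a value against 4122 and 3956. A further 217 strains were read at 400 µM but not at 800 µM, of which 62 were at −1 or less. Conversely, 51 were read only at 800 µM, of which 36 were at −1 or less. As a check of the haploid label, 20 of 202 listed essential genes had strain values on both arrays. Only 1 of them had 2 tags, so the absence of calls there says little, and the essential genes SPC98 and UBC9 (−1.38), which are not on that list, were called. Deletions of neighbouring genes could share an effect: no 2 lower strains lacked adjacent genes, and 1 pair of higher strains did (ECI1 and NNT1).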

How the data were processed

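Values were the authors' deposited log ratios of tag probes on 9 arrays, taken as log2; no source used here states the base, direction, scanner software, normalization or filters. A natural log would enlarge every log2 value by 1 factor. Labelled primers and asymmetric PCR gave the tag samples, control in Cy5 and arsenite in Cy3, per the labels' protocols. Of 22575 probes, 9727 had a value, and the platform annotation names 1 gene for 8765 of them and none for 962. The sign was turned, tags of a gene averaged and each array centred on its median strain. Tag sets were told apart by probe number (offset 10971). Because each dose has 1 array, no test was run, and array signals behind a value are not known. The calling rule was tested on simulated data. Named strains were the 15 lowest and 15 highest called, in each list with at least 3 calls the 2 leading and the most opposite member, the prefoldin, tubulin and arsenite transport strains, strains at the threshold and ribosomal pairs; other strains were chosen after their values were seen. Members and all lists (40, and 29 more written after the differences had been seen) were chosen with earlier results of these data known. Gene names follow the platform and RefSeq (assembly R64). Alternatives covered thresholds, tags and scaling. Python 3.11.15, pandas 2.3.3, numpy 2.4.6 and matplotlib 3.10.9 were used.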

Additional observations from a re-analysis of the deposited data

Results flagged for a closer look

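Of the probes with a value, 962 carry no gene name and entered no strain value. Among the 689 of these measured on both arrays, 14.7% differed by 1 or more between 400 and 800 µM, 35 lower and 66 higher. Between 0 and 100 µM the share was 1.05% of 664. Probes with a gene name had shares of 14.9% (of 6167) and 1.72% (of 5865) in the same steps. The strains behind the unnamed probes were not identified.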

How the results depend on the processing

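No paired analysis was possible because each dose has 1 array. The counts of 97 lower and 118 higher strains depended on threshold and scale. A threshold of 1.5 gave 34 and 47, a threshold of 2 gave 14 and 17, and a threshold of 2 times the tag error (0.59, chosen after seeing the data) gave 195 and 213. Asking only the mean of any tags to pass 1 gave 307 and 312. Quantile normalization gave 23 and 37, of which 20 and 28 were among the main calls. Equal median absolute deviations gave 21 and 60, of which 21 and 48 were. The median of the cytosolic ribosome strains, 1.75, was 0.92 after quantile normalization and 1.19 with equal deviations, and that of the mitochondrial ribosome strains, −0.64, was −0.11 and −0.31. The 2 scalings reduce the wider spread at 800 µM by construction, and whether that spread is part of the response was not tested. Values as deposited (139 and 79), strains measured on all 5 arrays and strains with exactly 2 tags (added after seeing the data) kept each count within 1.5 times. Among 107 named strains no called direction reversed under 4 alternatives. Of them, 92 moved by more than the tag spread with equal deviations, 30 with each tag set alone and 2 with matched tags.

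Precision is limited by 1 array per dose. Tag agreement does not cover variation between cultures, and dye bias was not measured.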

Other observations

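Further groups were formed after the values had been seen and are given as values. The 6 strains of the OCA group, putative phosphatases and their partners, had a median difference of −1.70, with OCA1 (−2.08) and OCA2 (−1.52) lower and OCA6 (1.78) higher. The median was −0.79 with equal deviations, where only OCA6 was called, and −0.65 after quantile normalization, where none was. The 4 measured haem synthesis strains had a median of −1.29. HEM3 had −1.0 and −2.72 at 400 and 800 µM and HEM1 had −1.86 and −3.32, both called lower. Neither was called with equal deviations or after quantile normalization, where the haem median was −0.36 and −0.24. Of the NatA and NatB acetyltransferases, ARD1, the NatA catalytic subunit, was lower (−1.18), and NAT1 and MDM20, the auxiliary subunits of the 2 enzymes, had −1.81 and −1.78 from 1 tag each. NAT5, a further acetyltransferase bound to NatA, had 0.22. ARD1 kept its call under neither scaling.

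Outside the ribosomal lists, RQC2 (1.38) and VMS1 (1.16), which handle stalled ribosomes and the chains left on them, and TMA22 (2.04), which acts in recycling the small subunit, were called higher. So were KTR7 (2.04), MNN2 (1.84), MNN5 (1.52) and MNS1 (1.29), of mannose addition and trimming on glycoproteins. All of these kept their call with equal deviations, but only KTR7 after quantile normalization. They were picked from the called strains, so no share of a list can be given. Other mannosyltransferase strains, VAN1, MNN11 and HOC1, had −0.50, −0.42 and 0.48 from 1 tag each and were not called.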
